A study of Homo sapiens with 9 samples.

Results

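Cytosolic ribosomal proteins are the protein part of the ribosome that translates nuclear messages, and this account follows the RNA of their genes through 9 RNA-seq libraries of a human cell line. A gene was counted as a member when its Ensembl identifier mapped to a symbol of the form RPL or RPS with a number, an optional A, X or L, or to RPLP0, RPLP1, RPLP2 or RPSA. The rule found 81 of 61093 listed genes, 49 of the large subunit and 32 of the small subunit, and it used no measured value. Pseudogenes were outside the rule, as were ribosomal proteins whose genes carry other symbols.

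The cells were labelled HepG2, a line from a human hepatocellular tumour, and formed 3 groups of 3 libraries. Control cells carried no treatment in the labels. The second group received SKF-96365, described in the series text as a blocker of TRPV2, a calcium-permeable channel, and the third received 2-APB, described there as an activator. Sample titles of the 2-APB group read ABP and its value columns are named TRPV2, so these libraries were assigned by the treatment label. Dose, exposure time, vehicle and batch are not given in the sources used here, nor is it said whether libraries of 1 group came from separate cultures. The p-values here thus reflect library-to-library spread alone, and that spread may be technical.

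Depth was 14786059 to 19026545 reads per library, with 6.90% to 8.04% of the signal in mitochondrially encoded genes. The label was checked against liver markers: albumin (ALB) had a mean of 4.24 normalized counts and HNF4A 1.21, while SERPINA1 had 338.7 and ASGR1 55.9, and the other 8 of 12 hepatocyte markers had means of 13.2 or less. Of other markers, KRT8 had 79420 and VIM 31330, but EPCAM 6.32 and COL1A2 13.7. The cells are therefore called only the labelled HepG2 cells. CD3E, a T cell gene, was listed at 0 in all 9 libraries. In mean correlation over all tested genes, 4 libraries stood nearer to another group than to their own. Control 3 had 0.982 with SKF-96365 and 0.959 with the other controls, and SKF-96365 1 had 0.983 with 2-APB and 0.971 with its own group. Controls 1 and 2 had 0.982 and 0.975 with 2-APB, and 0.969 and 0.968 with control. A fit without control 3 and SKF-96365 1 is given beside the counts below, and leaving out all 4 would leave no control.

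Ribosomal proteins are made in near-equal amounts, since each ribosome holds 1 copy of most of them. Their messages typically begin with a C followed by an unbroken run of C and T, the 5′ terminal oligopyrimidine or TOP run, through which mTORC1 and the protein LARP1 set how much of the RNA is translated. RNA abundance alone does not report that translational step. Many ribosomal protein genes also carry small nucleolar RNA (snoRNA) genes in their introns, and here 28 members held 60 of them.

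The TOP run was read from RefSeq start sites on GRCh38.p14 to show what the members share beyond their names. A run was counted where the annotated first base was C and at least 4 further bases were C or T without a break, on the gene's own strand. Of 64 members found in the table, 46 (71.9%) had it, against 5.14% of 27305 genes in the table and 6.77% of 11337 other tested genes. With a start of the run allowed within 5 bases of the annotated site, the shares were 82.8% of members and 25.2% of all genes. The median run was 8 bases and the longest, 19 bases, was in RPL39. The other 17 members, RPL5, RPL23 and RPL37 among them, had no entry in the table.

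The start sites of the members on which the comparisons below turn are shown with 15 bases before and 15 bases from the annotated start, on the gene's strand. Capitals mark the TOP run. RPLP0 (chr12:120201097-120201126, minus strand) is given as a typical member. RPL39 (chrX:119791616-119791645, minus), RPS27 (chr1:153990747-153990776, plus), RPS21 (chr20:62387088-62387117, plus) and RPL37A (chr2:216498829-216498858, plus) were among the short genes with low values in 2-APB. RPS29 (chr14:49598696-49598725, minus) was another, and has no run at its annotated start. RPS27L (chr15:63157463-63157492, minus), RPS26 (chr12:56041903-56041932, plus) and RPS7 (chr2:3575245-3575274, plus) set control 3, SKF-96365 2 and SKF-96365 3 apart from the rest.
RPLP0: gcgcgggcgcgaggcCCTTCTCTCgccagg
RPL39: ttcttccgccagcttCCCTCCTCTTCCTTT
RPS27: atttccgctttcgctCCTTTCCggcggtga
RPS21: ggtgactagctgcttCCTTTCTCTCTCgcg
RPL37A: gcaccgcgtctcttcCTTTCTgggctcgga
RPS29: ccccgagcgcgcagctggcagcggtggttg
RPS27L: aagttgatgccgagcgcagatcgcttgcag
RPS26: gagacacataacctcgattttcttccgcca
RPS7: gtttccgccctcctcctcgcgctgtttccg
The first 5 lines carry the run at the junction of the 15 bases on either side and the last 4 do not. With a start allowed within 5 bases, RPS7 has a run of 7 bases, while RPS29, RPS27L and RPS26 still lack one. RPS27 has the run at its start and its paralog RPS27L, a p53 target gene, lacks it. A match or its absence describes only the annotated start, which was not measured in these cells.

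Ribosomal protein genes were among the most abundant messages of the labelled HepG2 cells. Of the 81 members, 72 had a mean of at least 1000 normalized counts, 19 had at least 10000, and 60 stood among the 1000 highest of all listed genes. A total of 79 members passed the filter of 10 normalized counts in 3 of 9 libraries. The remaining pair were tissue-restricted paralogs: RPL3L, the striated muscle form of RPL3, had a mean of 3.57, and RPL10L, the testis form of RPL10, had a value of 0.874 (1 read) in SKF-96365 1 and 0 elsewhere. Normalized counts are deposited gene counts divided by 1 size factor per library, and they grow with message length. Members are therefore ranked against each other only per kilobase of coding sequence. The level bounds, the 1000 highest genes and the highest gene of each list rest on counts not divided by length.

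Per coding kilobase the tested members had a median of 12460 normalized counts, with quartiles at 7295 and 18340. The 3 highest were RPL41, the shortest of all with 75 coding bases, at 119400 ± 7580 (SD over 9 libraries), RPS18 at 32700 and the exit-tunnel protein gene RPL39 at 30930. Most of the RPL41 message is untranslated, and this scale counts coding bases alone. The lowest tested members were RPS10 at 192.8 and RPL17 at 440.1. Both lie almost wholly inside another annotated gene: 92.1% of RPS10 coding bases are shared with RPS10-NUDT3 and 100% of RPL17 with RPL17-C18orf32. In all, 7 members shared at least 50% of their coding bases with another gene on the same strand, RPL22, RPL26, RPL36A and RPS15A also among them, and they had a median of 933.4 against 13580 for the other 72. The 5 lowest members were all among these 7. Their levels are therefore uncertain, and so is that of any member with near-identical pseudogenes, since how shared reads were counted is not given in the sources used here.

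**Figure D1:**
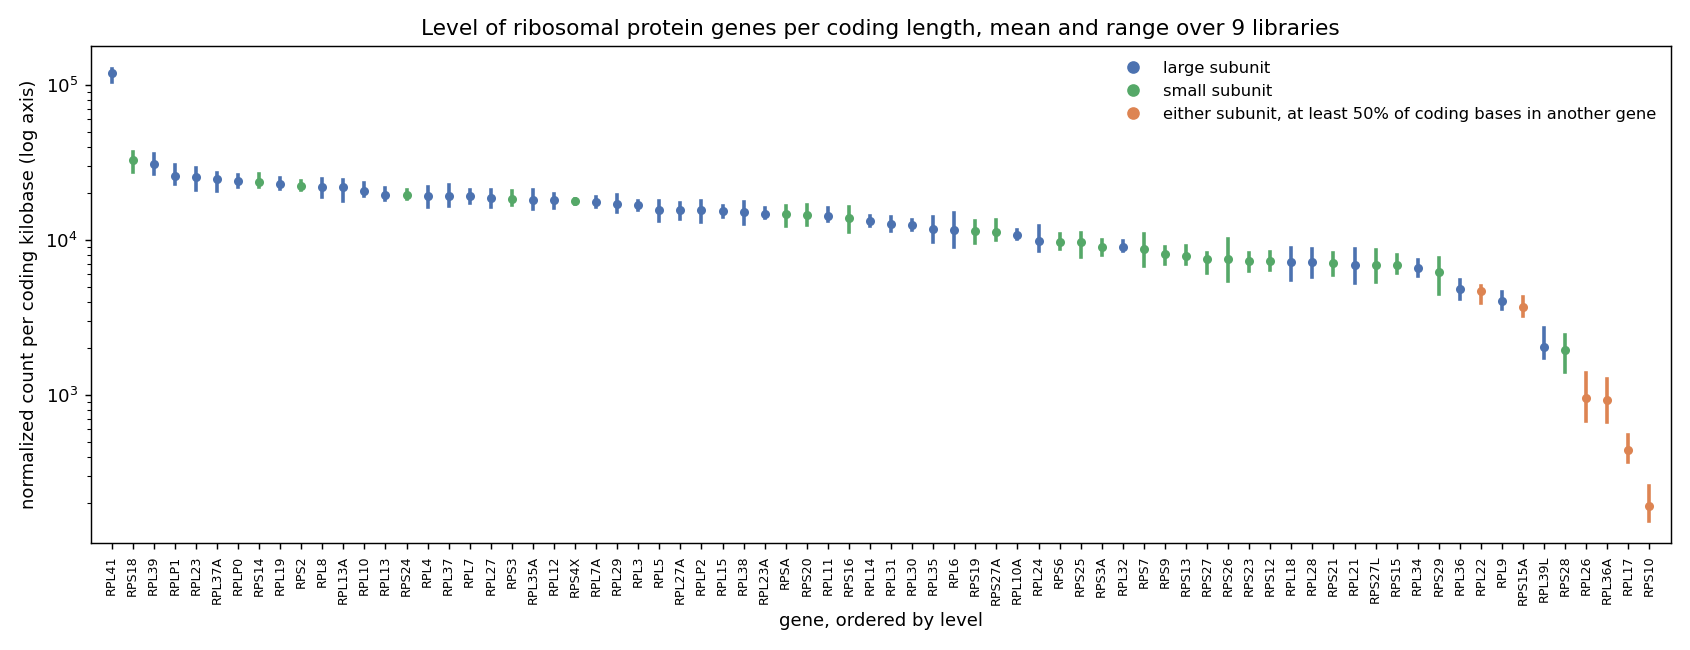
Normalized count per coding kilobase (log axis) of tested ribosomal protein genes, ordered by level; points are means over 9 libraries and lines run from the lowest to the highest library. RPL41 stands alone at 119400, the quartiles of all tested members are 7295 and 18340, and the lowest, RPS10 and RPL17, are genes with at least 50% of their coding bases in another annotated gene.

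Together the members took a similar share of the signal in each group. The share was 3.41%, 3.01% and 3.30% in controls 1 to 3 (3.24 ± 0.207, SD, n = 3). It was 3.66%, 3.03% and 3.10% with SKF-96365 (3.27 ± 0.346) and 3.35%, 3.22% and 3.59% with 2-APB (3.39 ± 0.186). With all 9 libraries the groups overlapped, and the spread within each group was larger than the differences between means. Without control 3 and SKF-96365 1 the means were 3.21% in control and 3.07% with SKF-96365, beside 3.39% with 2-APB. There the SKF-96365 libraries (3.03% and 3.10%) lay below those of 2-APB (3.22% to 3.59%), while the controls (3.01% and 3.41%) overlapped both. In bulk RNA, fewer cells of a kind and less RNA per cell cannot be told apart. Part of the spread came from single libraries: SKF-96365 1 was the highest of 9 in 35 of the 79 tested members (44.3%, against 9.31% of all tested genes), and 2-APB 3 was the highest in 19 (24.1%, against 11.1%). Control 2 was the lowest in 22 (27.8%, against 16.7%) and SKF-96365 2 in 23 (29.1%, against 13.2%).

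The summed value of large-subunit genes divided by that of small-subunit genes lay in a narrow range. It was 1.962, 1.970 and 1.956 in control, 2.000, 1.985 and 1.970 with SKF-96365, then 1.995, 2.015 and 2.001 with 2-APB. All 3 of the 2-APB libraries were above all 3 controls, while the SKF-96365 libraries reached down to the highest control. As a ratio of sums over chosen genes it carries no test.

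**Figure D2:**
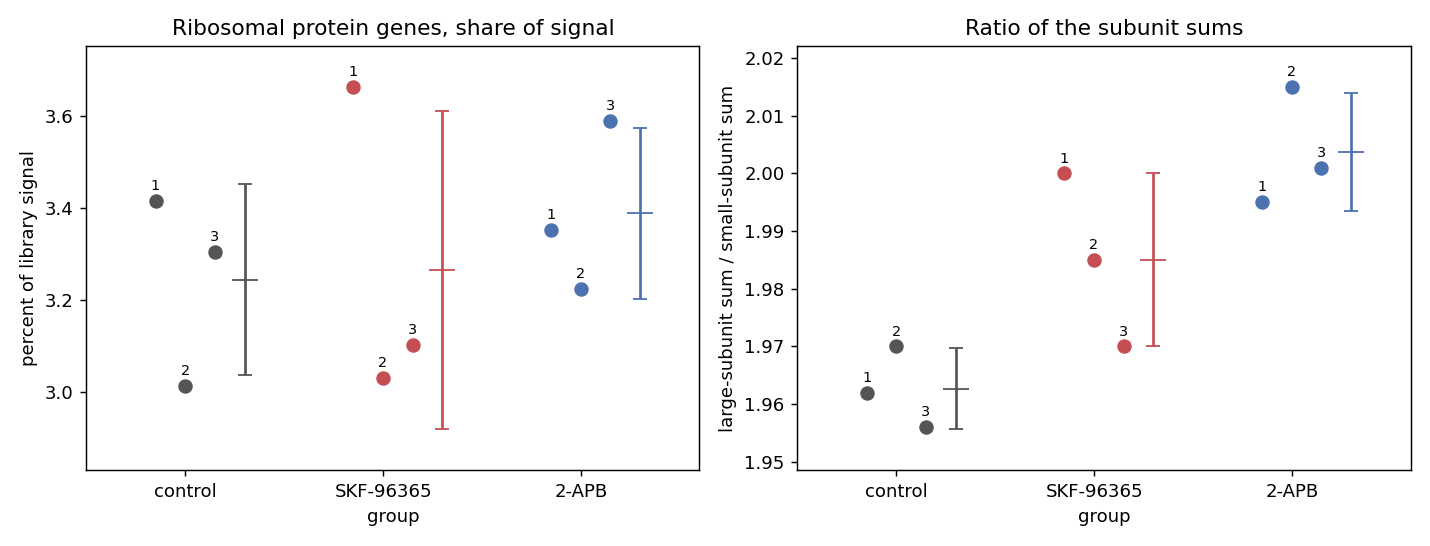
Left, percent of each library's signal in ribosomal protein genes; right, summed large-subunit value over summed small-subunit value; numbers are library numbers, bars are group means ± SD (n = 3), and the vertical axes do not start at 0. The share overlaps between groups, from 3.01% to 3.66%, and the ratio runs from 1.956 in control 3 to 2.015 in 2-APB 2.

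By the median coefficient of variation, members varied less between libraries than other abundant genes, a comparison without a test. Among the 72 with a mean of at least 1000, the coefficient of variation over all 9 libraries had a median of 8.95%. The 3728 genes at that level, these 72 included, had 12.8%, and 11 of the 72 lay above that gene median. The sets were not matched for level. The steadiest was RPS4X, an X-linked 40S protein gene, at 2.19%. Its libraries read 14270, 13900 and 13850 in control, 14500, 13520 and 14260 with SKF-96365, then 13760, 14080 and 14240 with 2-APB. Of these 72, RPS26, whose protein contacts the message near its exit from the 40S subunit, varied most, at 20.2%. Below that level the coefficient was larger for RPL26 (24.7%) and RPL36A (22.0%), both with most coding bases inside another gene.

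Members were next taken by role. The stalk recruits elongation factors through RPLP0, which anchors it, and the acidic pair RPLP1 and RPLP2. RPLP0 read 23120, 22000 and 21610 in control, 24890, 20800 and 22010 with SKF-96365, then 23290, 22340 and 24580 with 2-APB, so the groups overlapped. RPLP1 had log2 fold changes of -0.03 (SE 0.14) for SKF-96365 and -0.18 (SE 0.14) for 2-APB against control, and RPLP2 had 0.01 (SE 0.12) and -0.18 (SE 0.12). RPL5 and RPL11, which with 5S rRNA form the particle that can bind MDM2, had 0.10 (SE 0.14) and -0.02 (SE 0.12) for 2-APB. For SKF-96365 they had -0.02 and 0.04 with the same standard errors. Each of these differences was under 2 times its standard error.

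RPL3, which lies near the peptidyl transferase centre, read 19400, 19040 and 20050 in control and 20860, 20620 and 21660 with 2-APB. These groups did not overlap, but the log2 fold change was 0.11 (SE 0.11), and SKF-96365 libraries spanned 18810 to 21510. RPL10, needed late in 60S maturation, differed by 0.01 for SKF-96365 and 0.04 for 2-APB against control (SE 0.12 each). RPL23, at the subunit interface, had 0.00 and 0.09 (SE 0.15).

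On the small subunit, RPS6, the protein phosphorylated by S6 kinase, read 7686, 6775 and 7441 in control, 8143, 7009 and 7189 with SKF-96365, then 7031, 6524 and 7944 with 2-APB. RPS3, at the message entry, had log2 fold changes of -0.04 against control with both compounds (SE 0.12). RPS14 and RPS19, genes linked to anaemia when 1 copy is lost, lay between -0.05 and 0.05 (SE 0.11 and 0.15). RPSA, the laminin receptor precursor, had -0.09 and 0.07 (SE 0.14), and RPS27A, made as a ubiquitin fusion, had -0.04 and -0.08 (SE 0.13). For all of these the 3 groups overlapped.

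SKF-96365 against control asks what the compound labelled as an inhibitor does to these messages. limma called 0 of 79 members at an adjusted p under 0.05, as it called 0% of all 17492 tested genes, and 0 members had an unadjusted p under 0.05 (4% of all genes). The smallest adjusted p of a member was 0.789. edgeR and DESeq2 on 8 libraries called 0 members in this and in both other comparisons. In 0 members did the libraries of the 2 groups separate, against 6.2% of all genes (3.26% higher and 2.94% lower). Log2 fold changes ran from -0.23 to 0.19 with a median of 0.00, 40 positive and 39 negative. Over all tested genes the median was 0.00 too, with 49.5% positive. That split rested on single libraries: it was 18 positive of 79 without control 2, 20 without SKF-96365 1 and 55 without SKF-96365 2. Upper-quartile rescaling gave 50, and edgeR and DESeq2 on 8 libraries 56 and 52.

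The most positive values were RPS27L at 0.19 (SE 0.19), RPS18 at 0.17 (SE 0.12) and RPL21 at 0.13 (SE 0.18). Each depended on single libraries: without control 2, RPS27L had 0.045 and RPS18 0.075, and RPL21 had -0.036 without SKF-96365 1. The most negative were RPS26 at -0.23 (SE 0.20), RPS7 at -0.20 (SE 0.18) and RPL35A at -0.20 (SE 0.13). RPS26 and RPS7 belong to the 40S subunit and RPL35A to the 60S, and each had overlapping groups. Without SKF-96365 2, RPS26 had -0.10 and RPS7 -0.11, and without SKF-96365 1 they had -0.47 and -0.39.

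Single libraries set several of these values. RPS26 read 2962, 2548 and 2410 in control, 3125, 1887 and 1923 with SKF-96365, then 2633, 2509 and 3490 with 2-APB, so its 3 lowest libraries were control 3, SKF-96365 2 and SKF-96365 3. RPS7 read 5773, 5443 and 4560, then 5935, 4011 and 3953, then 5116, 4915 and 6344, with the same 3 libraries lowest. RPL6, a 60S protein gene, put them lowest too, at 8071, 7810 and 7788 against 9807 to 12990 in the other 6.

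RPS27L went the other way, with those 3 libraries highest. It read 1533, 1359 and 2175 in control, 1583, 2016 and 2094 with SKF-96365, then 1743, 1725 and 1368 with 2-APB. CDKN1A, another p53 target, read 8037, 7898 and 7824 in the same 3 libraries and 3740 to 6236 in the rest. MDM2, from the same list of p53 and 5S particle genes, did not set them apart. It read 5092, 5255 and 5303 there and 4843 to 5601 in the rest. The part of p53 in the RPS27L values was not tested. Control 3, SKF-96365 2 and SKF-96365 3 were the 3 lowest of 9 in 8 members (10.1%, against 17.6% of all tested genes): RPL17, RPL26, RPL27A, RPL36A, RPL6, RPS26, RPS7 and RPSA. They were the 3 highest in RPL37, RPS27L and RPS29 (3.80%, against 16.4%).

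A fit without control 3 and SKF-96365 1, chosen after the data were seen, called 4 of 79 members for SKF-96365 against control, where 28.1% of 17039 genes were called. RPL6, RPS26 and RPS7 were lower and RPS27L was higher. RPS26 had a log2 fold change of -0.53 (limma, adjusted p = 0.0327), RPS7 -0.49 (0.0196) and RPS27L 0.51 (0.0222). The libraries left out were picked by correlations over the same genes. Calls and adjusted p-values of this fit, here and below, are therefore descriptions and not independent tests. RPL35A, which was not called, had -0.33. The share of members called, 5.06%, was below that of all genes in this fit. The member median was -0.06 with 22 positive. Leaving out 1 library at a time called 0 members.

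**Figure D3:**
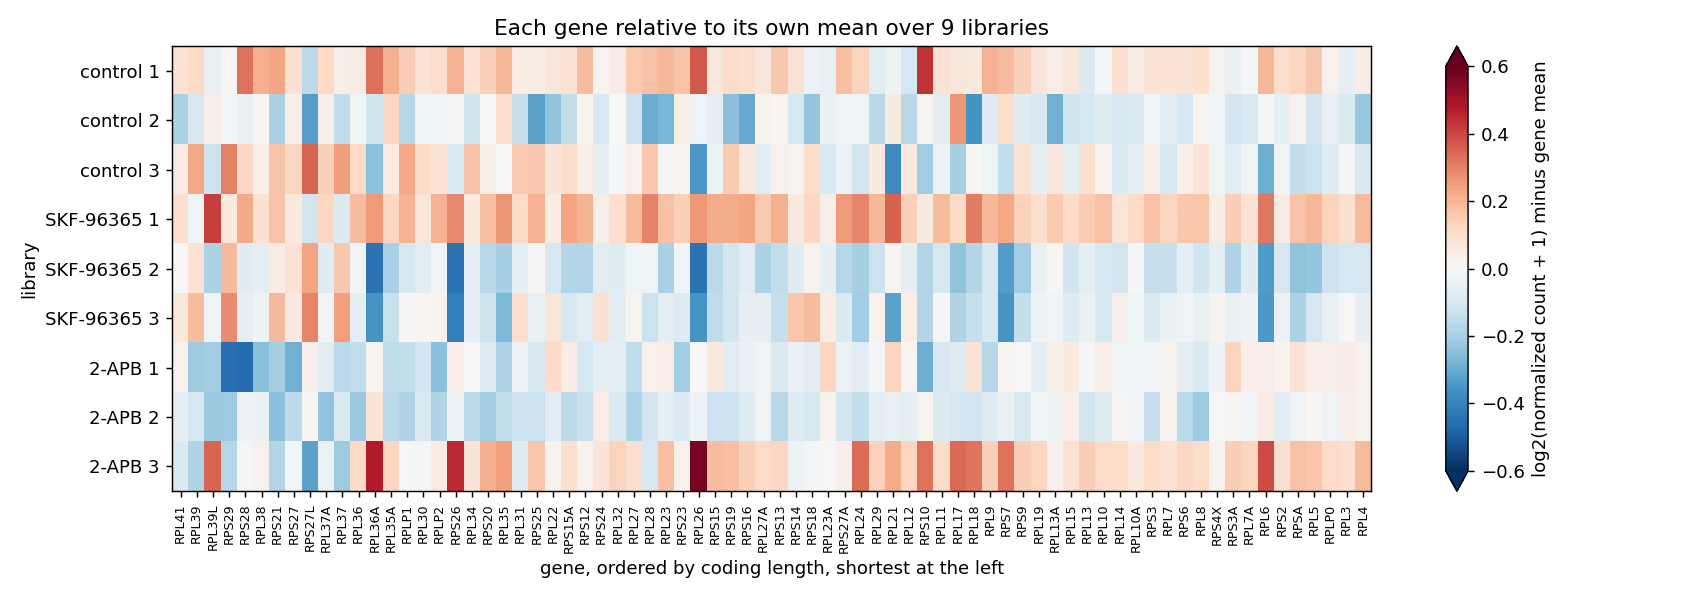
Tested ribosomal protein genes (columns, shortest coding sequence at the left) in each library (rows), as log2(normalized count + 1) minus the gene's own mean over 9 libraries; red is above and blue below that mean. SKF-96365 1 and 2-APB 3 are red across most genes, and the left columns of the 3 libraries of 2-APB are mostly blue or pale, with RPL39L in 2-APB 3 an exception.

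2-APB against control asks the same of the compound labelled as an agonist. limma called 0 of 79 members and 0% of all tested genes; 2 members, RPS27 and RPS29, had an unadjusted p under 0.05 (2.53%, against 2.8% of all genes). The member median was 0.00, with 40 positive and 39 negative, and 49.7% of all genes were positive. The members were 27 positive of 79 without 2-APB 3, 31 without control 2 and 50 without control 1, and scaling to equal totals gave 52 and upper-quartile rescaling 48. In 3 members all 2-APB libraries lay above all controls (RPL23A, RPL3 and RPS3A; 3.8% of members, against 3.61% of all genes). In 4 they lay below (RPL37A, RPL39, RPS27 and RPS29; 5.06%, against 3.97%). Together they make 7 members, 8.86% against 7.57% of all genes, a share near that of the background.

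RPS29, a small zinc-binding protein of the 40S head, read 1042, 1031 and 1279 in control, 1080, 1185 and 1259 with SKF-96365, then 754.2, 890.6 and 921.0 with 2-APB. Every 2-APB library was below the other 6, and the log2 fold change against control was -0.38 (SE 0.13, limma adjusted p = 0.9995). Alternatives left it between -0.28 and -0.44. RPS27, also zinc-binding, read 2026, 1947 and 2074 in control, 1986, 2017 and 1970 with SKF-96365, then 1553, 1705 and 1884 with 2-APB, a log2 fold change of -0.24 (SE 0.10). Here too the 2-APB libraries were the 3 lowest.

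RPL39, which lines the peptide exit tunnel, read 5120, 4388 and 5519 in control, 4617, 5002 and 5348 with SKF-96365, then 4055, 4385 and 4155 with 2-APB. Its highest 2-APB library lay just below the lowest control, and the log2 fold change was -0.25 (SE 0.12). RPS21 read 2061, 1531 and 1970 in control, 1970, 1806 and 2005 with SKF-96365, then 1523, 1473 and 1550 with 2-APB. Control 2 lay within the 2-APB range, and the log2 fold change was -0.28 (SE 0.13). RPS28, present at 360.5 ± 59.8 with 2-APB and 443.9 ± 56.4 in control, had -0.31 (SE 0.17), and -0.16 without 2-APB 1. The most positive values were RPL21 at 0.22 (SE 0.18), RPL36A at 0.20 (SE 0.23) and RPL6 at 0.20 (SE 0.20). Without control 3 these were 0.093, 0.085 and 0.066, and RPL36A and RPL6 had 0.059 and 0.077 without 2-APB 3.

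**Figure D4:**
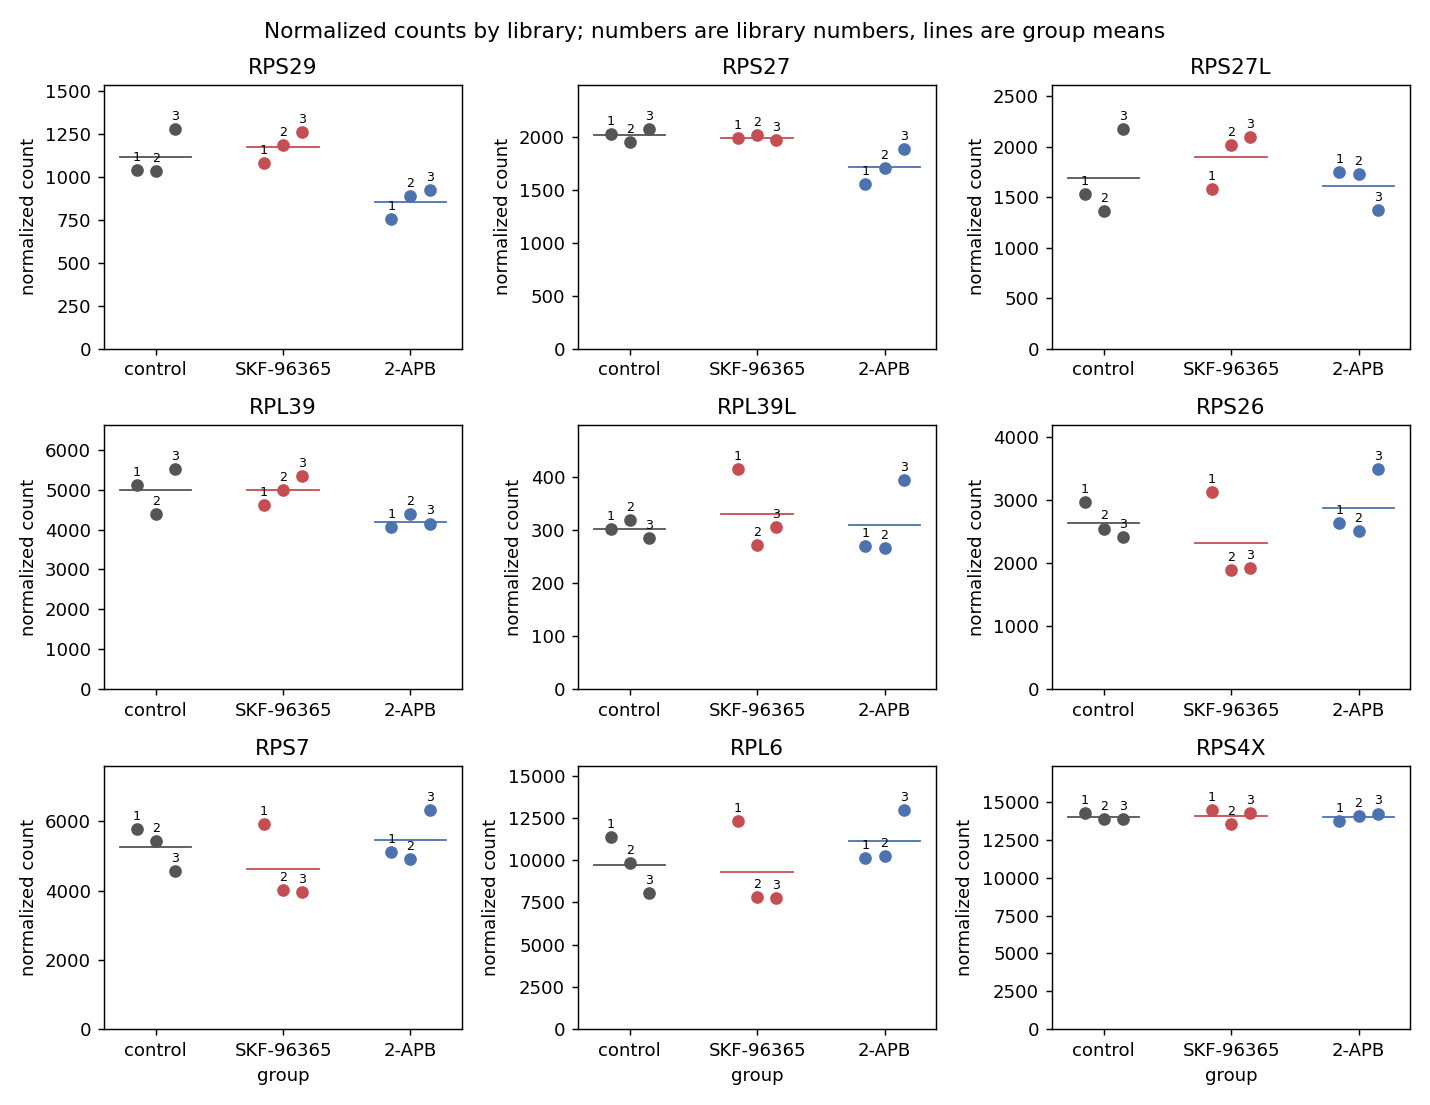
Normalized counts of 9 ribosomal protein genes by group, with library numbers beside the points and group means as lines; each vertical axis starts at 0. In RPS29 and RPS27 the 3 libraries of 2-APB are the lowest of 9; in RPS26, RPS7 and RPL6 control 3 lies with SKF-96365 2 and SKF-96365 3 below the other 6; RPS4X stays between 13520 and 14500.

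For 2-APB against SKF-96365, the compounds side by side, limma called 0 of 79 members and 0% of all tested genes. RPS21 and RPS29 had an unadjusted p under 0.05 (2.53%, against 7.3% of all genes), and the same pair did in the F test over the 3 groups (4.02% of all genes), which called 0 members. RPS29 had a log2 fold change of -0.46 (SE 0.13, limma adjusted p = 0.684) and RPS21 -0.34 (SE 0.13). RPL37, a zinc-binding 60S protein gene, had -0.26 (SE 0.13). The most positive were RPL36A at 0.37 (SE 0.23), RPL26 at 0.36 (SE 0.25) and RPS26 at 0.34 (SE 0.20). Without 2-APB 3 these were 0.23, 0.16 and 0.19, without SKF-96365 2 they were 0.24, 0.22 and 0.21, and without SKF-96365 1 they were 0.59, 0.58 and 0.58.

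In 0 members were all 2-APB libraries above all SKF-96365 libraries (8.21% of all genes), and in 6 they were below: RPL37, RPL39, RPS18, RPS21, RPS27 and RPS29 (7.59%, against 8.79%). Counting either direction, 17% of all genes did not overlap. The median was -0.01 with 36 positive, beside 0.01 and 51% positive over all genes. Without SKF-96365 2 the members were 20 positive, without 2-APB 3 they were 22 and without SKF-96365 1 they were 60. Equal totals gave 53 positive, and edgeR and DESeq2 on 8 libraries gave 26. Without control 3 and SKF-96365 1, limma called RPL37, RPL6, RPS26, RPS29 and RPS7 (5 of 79, 6.33%, where 13.3% of all genes were called). RPS29 then had -0.52 (limma, adjusted p = 0.0194), RPL37 -0.36 (0.0365) and RPS26 0.58 (0.030). The member median moved to 0.07 with 60 positive. In the same fit 0 members and 0% of genes were called for 2-APB against control. The 3 comparisons share libraries in pairs and are not independent of one another.

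The most negative log2 fold changes of 2-APB against control were those of short members, although RPL41 and RPL39L, also short, lay near 0. Across the 79 tested members, the log2 fold change of 2-APB against control had a correlation with log2 coding length of r = 0.56 (rho = 0.57), against r = -0.03 over 12983 other genes. Against SKF-96365, whose fold change shares the 2-APB libraries, r was 0.49 (rho = 0.54), and for SKF-96365 against control it was 0.01 (rho = 0.08). The points share their libraries, so these values are descriptions across genes. For 2-APB against control r stayed between 0.46 and 0.57 under every alternative run, 0.46 being the value without control 3.

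Among members of over 200 and up to 300 coding bases, all 7 members (RPL37, RPL37A, RPL38, RPS21, RPS27, RPS27L and RPS28) had negative log2 fold changes for 2-APB against control, with a median of -0.21. Among 218 other genes of that length 47.7% were negative and the median was 0.00. Of the 4 members of at most 200 bases, 3 were negative with a median of -0.14, where 63.3% of 49 other genes were negative with a median of -0.09. Among the 22 members over 600 bases, 4 were negative and the median was 0.07. Of other genes of that length 51.6% were negative, with a median of -0.005. Taking all 11 members of at most 300 bases, 10 were negative with RPL39L the exception, against 50.6% of 267 other genes of at most 300 bases, while scaling to equal totals left 8, with RPL41 and RPS27L positive as well. The length bounds were chosen after values were seen.

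A difference of medians within a library does not depend on its scaling. The median of the 11 short members minus that of the 22 long members, each gene centred on its own mean, was 0.04, 0.04 and 0.18 on the log2 scale in controls 1 to 3. It was -0.06, 0.15 and 0.11 with SKF-96365, and -0.23, -0.08 and -0.20 with 2-APB. The group means were 0.09 ± 0.08, 0.07 ± 0.11 and -0.17 ± 0.08 (SD, n = 3), and the 3 libraries of 2-APB were the 3 lowest of 9, though SKF-96365 1 was close to 2-APB 2. In other genes of these lengths the same difference was between -0.15 and 0.14, with -0.01, -0.04 and 0.10 in 2-APB. Whether short messages were recovered equally in every library was not tested.

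**Figure D5:**
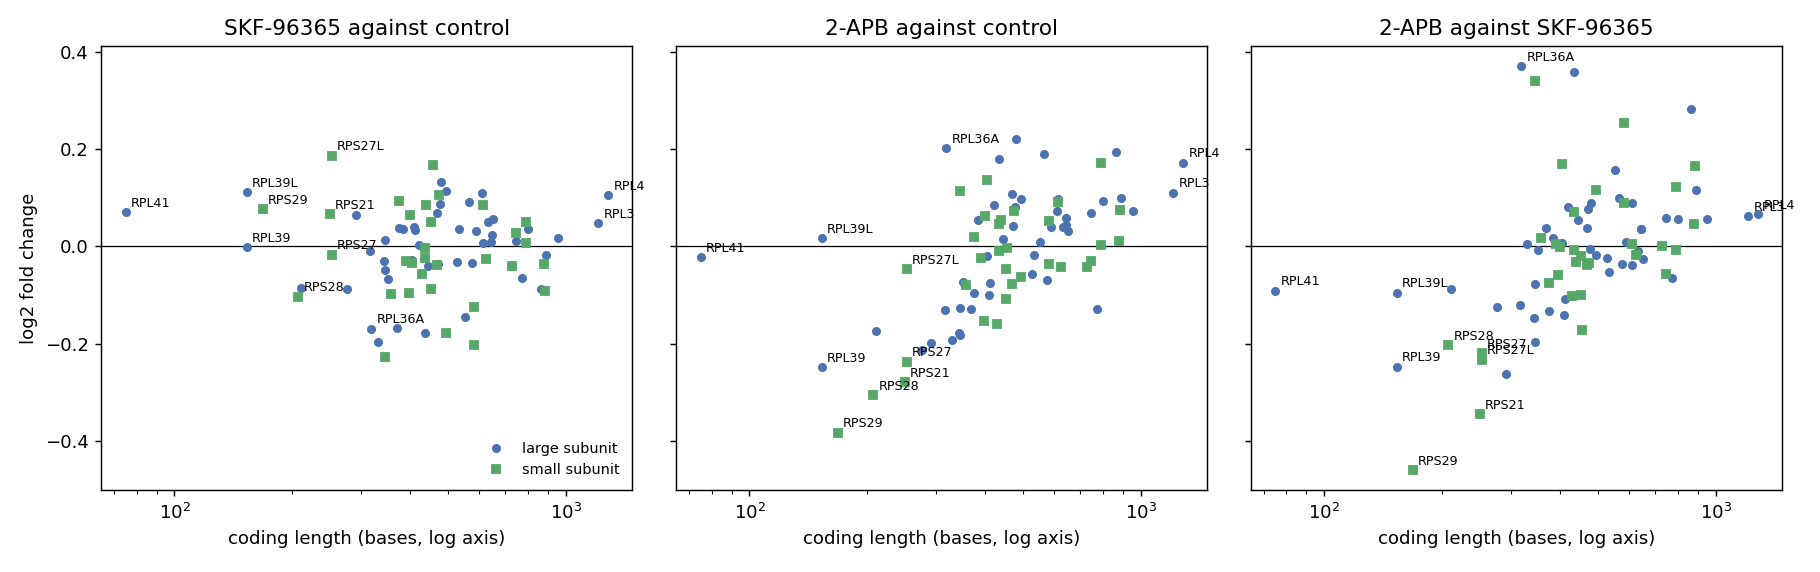
Log2 fold change (vertical) against coding length in bases (log axis) for the 79 tested members in the 3 comparisons; circles are large-subunit and squares small-subunit genes. For 2-APB against control 10 of the 11 genes of at most 300 bases, RPS29, RPS28, RPS21 and RPL39 among them, lie below 0, RPL39L lies at 0.02, and most genes over 600 bases above it; for SKF-96365 against control no slope is seen (r = 0.01).

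The TOP run at the annotated start did not separate the members by their change. For 2-APB against control the 46 tested members with the run had a median log2 fold change of -0.02 and the 17 without it 0.03. For SKF-96365 against control these medians were both 0.01. Some members without it, RPL4 and RPS28 among them, have a run within 5 bases of that start. Members with no start listed were in neither set. Large-subunit members had medians of 0.01 for SKF-96365 and 0.03 for 2-APB against control, and small-subunit members -0.03 for both.

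Paralogs carrying an L were compared with their partners as ratios of normalized counts within a library. RPS27L and RPS27 have equal coding lengths, as do RPL39L and RPL39. RPS27L over RPS27 was 0.757, 0.698 and 1.05 in control, 0.797, 1.00 and 1.06 with SKF-96365, then 1.12, 1.01 and 0.726 with 2-APB. The range within each group was as wide as that between groups. RPL39L over RPL39 was 0.0590, 0.0726 and 0.0516 in control and between 0.0545 and 0.0952 in the other 6. RPL22L1, a paralog outside the symbol rule, stood at 0.187 ± 0.032 of RPL22 in control, 0.191 ± 0.0444 with SKF-96365, then 0.137 ± 0.022 with 2-APB, with overlap between groups.

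Genes that work with the ribosomal proteins were read from fixed lists. With all 9 libraries limma called none of them in any of the 3 comparisons. Pseudogenes aside, the most genes of a list with an unadjusted limma p under 0.05 were in 2-APB against SKF-96365. These were 4 of the 10 proliferation genes and 3 of the 19 chaperones and importers, beside 7.3% of all genes. Other TOP messages (23 tested, EEF1A1 the highest at a mean of 125200) had medians of -0.01 for SKF-96365 and 0.04 for 2-APB against control, beside 0.00 and 0.00 for the members. Initiation factors (29 tested, EIF4G2 highest) were negative in 23 for SKF-96365 and 17 for 2-APB, with medians of -0.07 and -0.01. Chaperones and importers of ribosomal proteins (19 tested, NAP1L1 highest) were negative in 15 and 10, with medians of -0.10 and -0.09. Genes with a mean of at least 1000 were themselves mostly negative, 2156 and 2406 of 3728, with medians of -0.04 and -0.04. The lists of mTORC1 and TOP control (15 tested, CNBP highest) and ribosome quality control (17 tested, RACK1 highest) had medians of -0.10 and -0.03 for SKF-96365, and -0.10 and -0.01 for 2-APB. Elongation factors (8 tested) had -0.01 and 0.05, and the list of p53 and the 5S particle (8 tested) -0.09 and -0.01. Without control 3 and SKF-96365 1, initiation factors had -0.23 and the chaperones and importers -0.28 for SKF-96365 against control. The mTORC1 and TOP control list had -0.315. There limma called 8 of 15 genes of that list and 9 of 19 chaperones and importers, where 28.1% of all genes were called. It called 8 of 29 initiation factors, 2 of 23 other TOP messages and 6 of 17 quality control genes. Elongation factors had 3 of 8 called, and the list of p53 and the 5S particle 4 of 8.

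Mitochondrial ribosomal protein genes encode the proteins of the separate ribosome of that organelle. For SKF-96365 against control 69 of 77 were negative with a median of -0.17, beside 39 of 79 cytosolic members and a median of 0.00. Without control 3 and SKF-96365 1 these were 68 of 76 with -0.47 and 57 of 79 with -0.06. In that fit limma called 40 of the 76 and 4 of the 79, where 28.1% of 17039 genes were called. Of the 3728 genes with a mean of at least 1000 it called 1449. For 2-APB against SKF-96365, 66 of 77 were positive with a median of 0.18. No test of the difference between the sets was made. The proliferation list, with TOP2A highest, moved in the same comparisons. It was negative in 10 of 10 for SKF-96365 against control with a median of -0.44. Without control 3 and SKF-96365 1 its median was -0.84 and limma called 10 of 10, beside the same 28.1% of all genes. The part of proliferation in the values of the mitochondrial list was not tested.

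Processed copies of ribosomal protein genes are common in the human genome, and 1588 pseudogenes of the members were listed. Of these 873 had a value above 0 and 148 were tested. Their sum was 4.57% of that of the members, and 0.143% to 0.159% of the signal in every library. RPS2P5 was the highest, with a mean of 2326. Of the 148, 83 were positive for SKF-96365 and 64 for 2-APB against control, and limma called 0. Reads of a member and its pseudogenes cannot be fully told apart.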

How the data were processed

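RNA-seq was analysed in 9 libraries of cells labelled HepG2, 3 per group, from total RNA with a SMARTer messenger RNA kit, per the labels' protocols. The deposited values are a normalized signal: counts per gene were scaled by the authors with DESeq2 size factors, per the submitters' processing notes and the table's name, with no version given. Aligner, counter, strand setting, genome build and annotation are not given in the sources used here. Of 60605 Ensembl identifiers, 60593 (99.98%) matched a symbol, 130 of them through GENCODE 29, and 488 rows were unnamed loci. All values (100%) were whole multiples of a library's smallest value within 0.001, so whole reads were recovered. For SKF-96365 3 the step was 0.992, too close to 1 to be certain, and count models used the other 8 libraries, where edgeR 4.0.16 called 0 genes in any comparison and DESeq2 1.42.0 called 2, 0 and 1. Depth per library is that of the recovered reads. Intervals are SD or SE over libraries, and PCR copies cannot be told from separate molecules.

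The main test was limma 3.58.1 (R 4.3.3) with an intensity trend on log2(value + 1), over 17492 genes with at least 10 in 3 of 9 libraries. The spread was estimated jointly from all 9 libraries. The 3 contrasts were two-sided, a moderated F statistic covered all groups, and Benjamini-Hochberg adjustment ran over all tested genes at 0.05. The fit was tested on simulated data. Coding lengths and overlaps came from the principal transcripts of GENCODE 29, and start sequences from RefSeq on GRCh38.p14, used by gene name only. Alternatives were pseudocounts of 0.5 and 5, other filters, other scalings, no trend, count models, only the 2 groups compared, a replicate block and each library left out. The members and all lists were chosen with earlier results of these data known. Members were named by role, by the 3 highest and 3 lowest levels per length, by the 3 largest changes in each direction per contrast and by the 3 largest coefficients of variation, and the highest member of each list was named. The genes given for groups that did not overlap, and those called without control 3 and SKF-96365 1, were also named. A few named members are not reported here, and figures that label every gene leave them out.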

Additional observations from a re-analysis of the deposited data

How the results depend on the processing

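Over all alternatives, 154 of the group-level values kept their side of the threshold or moved by less than the spread between libraries, and 388 of the values of single named genes kept direction and call. The exceptions were these. Without control 3 and SKF-96365 1, limma called 4 members for SKF-96365 against control, 5 for 2-APB against SKF-96365 and 4 over the 3 groups, where all 9 libraries gave 0 each; leaving out 1 library at a time gave 0 to 0. That fit has 2 libraries of control, 2 of SKF-96365 and 3 of 2-APB, and the cause of the added calls was not tested. RPL21 turned from 0.13 to -0.036 without SKF-96365 replicate 1 and to -0.165 without both libraries, and reached 0.301 without SKF-96365 replicate 3. With mitochondrially encoded genes taken out of the total, the share was 3.50% in control and 3.67% with 2-APB, since the total is smaller. Member medians with 1 library left out ranged from -0.08 to 0.06 for SKF-96365 against control, from -0.06 to 0.04 for 2-APB against control and from -0.07 to 0.07 for 2-APB against SKF-96365, on both sides of 0. Equal totals moved the median of all tested genes to 0.05 for 2-APB against control and 0.06 against SKF-96365, and the member medians to 0.05 in both. With the replicate number as a block, limma called 0 members in each comparison and the medians were 0.00, 0.00 and -0.01. Same-numbered libraries deviated together in some pairs (r up to 0.50) and apart in others (down to -0.35), so the numbers were taken as names. At 3 libraries a group, standard errors of most members were 0.10 to 0.25, which sets the size of difference that could be seen.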
